A study of Homo sapiens with 34 samples.

Results

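The ETS family is a group of transcription factors that share a DNA-binding domain recognising the core sequence GGAA. ETV2 is known as the factor that starts the endothelial and blood programmes in mesoderm and is then switched off, whereas FLI1 and ERG are known as factors that endothelial cells keep and that blood progenitors also use. ETS1 and ETS2 are widely expressed activators, ELK3 and ETV6 act mainly as repressors, and ELF1 is an activator of endothelial and blood cell genes. These 8 genes, ETV2, FLI1, ERG, ETS1, ETS2, ELF1, ELK3 and ETV6, were taken by name from the 20255 genes of the expression table and were described over all 12 cell populations of the study.

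RNA was sequenced from H1, an established human embryonic stem cell line, as it differentiated towards blood without added haematopoietic cytokines. BMP4 with VEGF was given at day 0, and VEGF alone from day 2 onwards. Unsorted cells were taken as undifferentiated cells (1 sample), as embryoid bodies at day 0 and at days 2 and 4, and cells sorted by CD43, a surface protein of blood cells encoded by SPN, were taken as CD43- and CD43+ cells at days 6, 9 and 12. On day 16 CD43-CD45- and CD43+/CD45+ cells were sorted, called here the day 16 CD43- and CD43+ cells. Where day 16 is compared with an earlier day, time and the added sort by CD45 cannot be told apart. Each population after the undifferentiated cells had 3 samples, which the study describes as biological replicates, and all of them come from 1 cell line and 1 protocol.

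The values are tag counts that the authors normalized for GC content within and between samples. Sorted by size, the values are the same in all 34 samples, so that a value is close to the rank of a gene in its sample and read depth is unknown. None of the 8 genes was at 0 or at the table's maximum in any sample. Differences are given as log2 fold changes of (value + 1), which come out too small where values are low. In the text a gene rose or fell where its adjusted p from limma was below 0.05, and it is said to be called where the change was also above 4-fold. Adjustment was over the 19788 genes tested, which include all 8. Shares of all genes are for calls, and none was computed for counts at p alone, which therefore have no background. SPN followed the sort, at 5979 to 8780 in day 6 CD43+ cells and at 19 to 49 in day 6 CD43- cells. Because whole populations were sequenced, fewer cells with a transcript and less RNA per cell cannot be told apart.

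ETV2 lies on chromosome 19 (GRCh38, 35641745 to 35644871, plus strand). FLI1 and ETS1 lie on chromosome 11 (128686535 to 128813267, plus strand, and 128458761 to 128587558, minus strand), ERG and ETS2 on chromosome 21 (38380027 to 38661780, minus strand, and 38805307 to 38824955, plus strand), ELK3 and ETV6 on chromosome 12 (96194382 to 96269835 and 11649854 to 11895402, both plus strand) and ELF1 on chromosome 13 (40931920 to 41061440, minus strand). All these are spans of whole genes. Transcripts of the opposite strand overlap FLI1 (SENCR and RP11-744N12.3) and ELF1 (WBP4), and the strand use of the counting was not given in the sources used here, so that reads of these pairs may be mixed.

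Because ETV2 rose at day 2, when ERG fell, and ERG rose only at day 4, the 250 bases before their annotated start sites (RefSeq, GRCh38.p14) are shown for the core sequence that ETS factors bind. Capitals mark GGAA or TTCC, the same core read on the other strand. The windows are chr19:35641495-35641744 for ETV2 (plus strand), and chr21:38660668-38660917 and chr21:38498478-38498727 for an upstream and a downstream start of ERG (minus strand, written 5′ to 3′ along the gene).
ETV2: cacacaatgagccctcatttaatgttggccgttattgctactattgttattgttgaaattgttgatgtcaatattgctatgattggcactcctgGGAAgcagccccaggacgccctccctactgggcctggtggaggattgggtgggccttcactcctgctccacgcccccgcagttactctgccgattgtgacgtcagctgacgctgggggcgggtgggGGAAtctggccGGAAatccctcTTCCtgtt
ERG upstream: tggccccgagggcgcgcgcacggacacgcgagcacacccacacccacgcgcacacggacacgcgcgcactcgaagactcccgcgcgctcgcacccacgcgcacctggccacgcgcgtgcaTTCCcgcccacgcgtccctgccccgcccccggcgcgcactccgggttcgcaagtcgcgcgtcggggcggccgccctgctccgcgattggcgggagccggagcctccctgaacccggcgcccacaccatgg
ERG downstream: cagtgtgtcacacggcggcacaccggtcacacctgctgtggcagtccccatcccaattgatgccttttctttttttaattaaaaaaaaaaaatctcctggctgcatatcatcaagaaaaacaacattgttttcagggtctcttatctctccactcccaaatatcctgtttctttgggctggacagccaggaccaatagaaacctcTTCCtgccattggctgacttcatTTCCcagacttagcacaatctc
The ETV2 window held 4 matches, and the ERG windows shown held 1 and 2. ERG has another pair of windows in the table that are not shown, of which chr21:38584946-38585195 held 4 matches, as many as ETV2, and chr21:38498505-38498754, which overlaps the downstream one, held 1. At least 1 match was present in 92.7% of all 35116 promoter windows of this length, and at least 4 were present in 34.3%. The longer CCGGAA or TTCCGG, chosen after the sequences were seen, occurred once in the ETV2 window and in neither ERG window shown, against 14.5% of all windows. A match of letters is a description and does not show binding. Windows were found for 6 of the 8 genes, with none for FLI1 and ETS1.

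ETV2 was low before differentiation, rose early and was highest in the CD43+ cells of day 6. Its value was 22 in the undifferentiated sample, 22, 14 and 26 at day 0, and 63, 82 and 62 at day 2. It reached 112, 266 and 134 at day 4, and 260, 299 and 354 in day 6 CD43+ cells beside 180, 134 and 208 in day 6 CD43- cells. The day 0 and day 2 samples did not overlap, nor did those of days 2 and 4, and the 3 day 6 CD43+ samples overlapped with day 4 through replicate 2 of day 4.

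From day 6 ETV2 fell in both branches. In CD43+ cells it stood at 77, 170 and 138 at day 9, at 17, 32 and 22 at day 12, and at 26, 37 and 27 at day 16. In CD43- cells it stood at 46, 70 and 84 at day 9, at 12, 20 and 58 at day 12, and at 8, 10 and 18 at day 16. In both branches the ranges of days 12 and 16 overlapped with that of day 0, although day 16 CD43+ cells did so only at their lowest value, 26. Ordered by mean, day 6 CD43+ cells (304 ± 47.2, SD, n = 3) came first and were the only population that did not overlap with the next one. The following means were 174 ± 37.4 in day 6 CD43- cells, 171 ± 83.3 at day 4 and 128 ± 47.2 in day 9 CD43+ cells, and each neighbour from there down to day 16 CD43- cells (12 ± 5.3) overlapped with the next.

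FLI1 was almost silent until day 2 and present in every later sample. It was at 12 in undifferentiated cells, at 3, 8 and 12 at day 0 and at 8, 20 and 7 at day 2, and then at 1892, 1977 and 1803 at day 4. At day 6 it was at 2847, 2487 and 3377 in CD43+ cells and at 3302, 2210 and 1192 in CD43- cells. The lowest of all 27 samples from day 4 onwards was 812, in day 12 CD43- cells, so that the samples before and after day 4 stood far apart.

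In the later CD43+ cells FLI1 stood at 2554, 2734 and 2616 at day 9, at 1882, 2136 and 2050 at day 12, and at 4292, 4962 and 3062 at day 16. In CD43- cells it stood at 2441, 947 and 1850 at day 9, at 1122, 812 and 838 at day 12, and at 1700, 2288 and 2049 at day 16. Day 16 CD43+ cells had the highest mean, 4105 ± 964 (SD, n = 3), and day 12 CD43- cells the lowest after day 4, 924 ± 172.

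ERG differed from FLI1 in that it was already measurable before differentiation, was lowest at day 2 and later stayed higher in CD43- cells. It was at 83 in undifferentiated cells, at 50, 86 and 102 at day 0, at 8, 15 and 10 at day 2 and at 716, 884 and 838 at day 4. In CD43- cells it was at 3481, 2182 and 797 at day 6, at 1990, 818 and 1488 at day 9, at 886, 766 and 986 at day 12 and at 1130, 1184 and 1293 at day 16. In CD43+ cells it was at 929, 769 and 1008 at day 6, at 356, 340 and 368 at day 9, at 146, 265 and 334 at day 12 and at 552, 414 and 392 at day 16. No day 9, 12 or 16 CD43+ sample reached the level of any CD43- sample of the same day, whereas on day 6 replicate 3 of the CD43- cells lay within the CD43+ range.

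**Figure D1:**
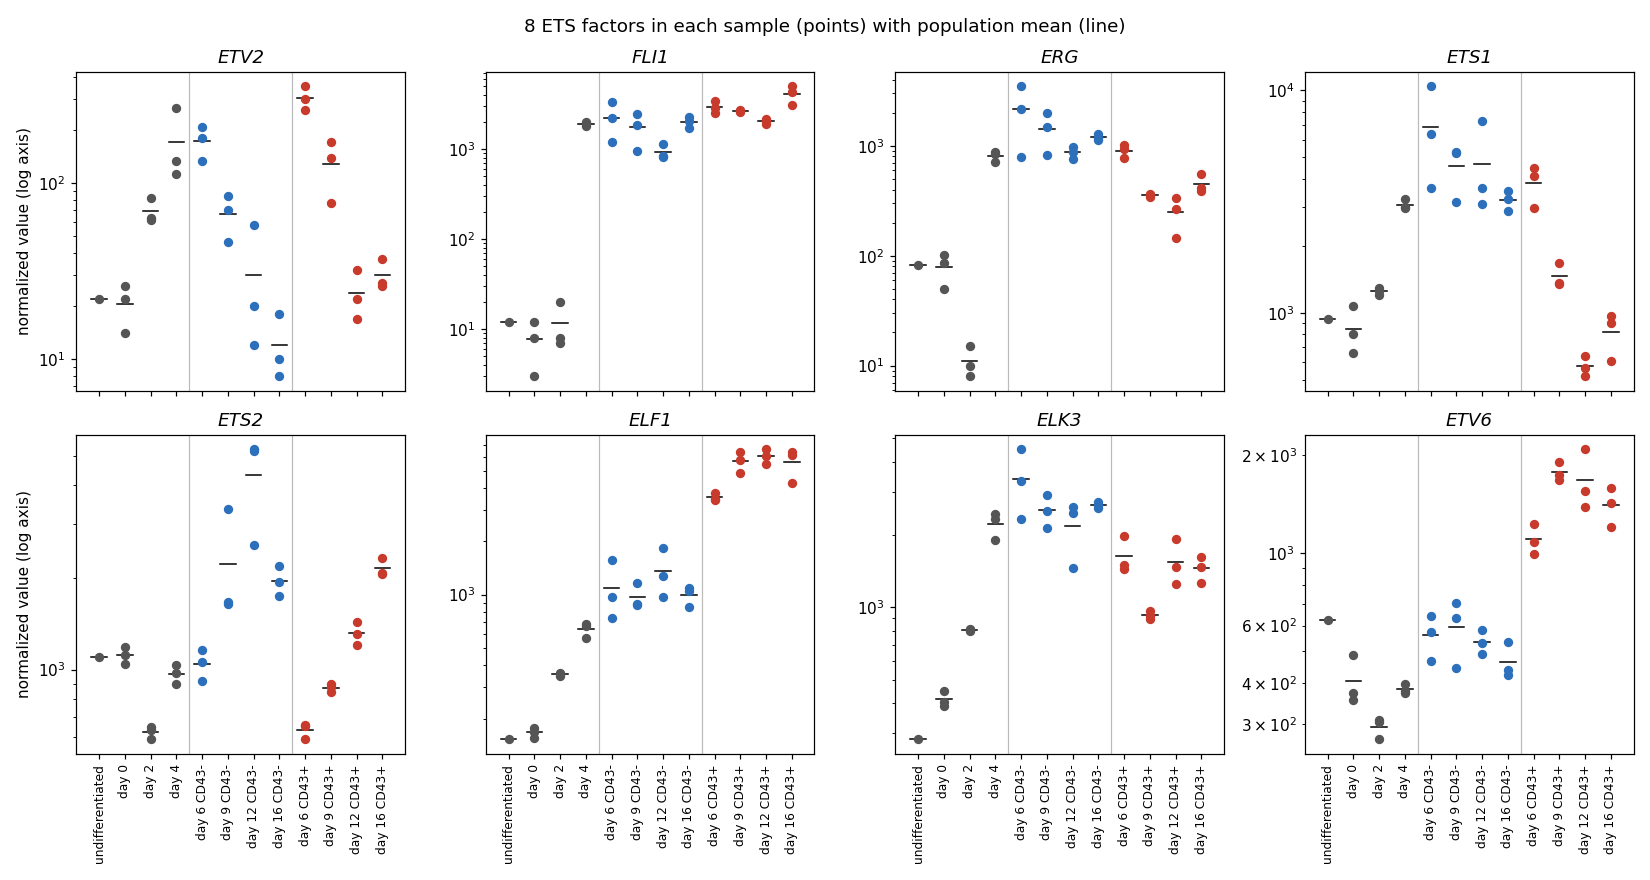
Normalized values (log axis, a separate range in each panel) of the 8 ETS genes in each sample, by population. Points are samples and lines are population means. Grey points are unsorted cells, blue points CD43- cells and red points CD43+ cells. ETV2 is highest at 260 to 354 in day 6 CD43+ cells and back at 8 to 58 from day 12 on, whereas no FLI1 sample from day 4 onwards is below 812.

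The first comparison, day 2 against day 0, covers the first step from embryoid bodies. The sum of 5 pluripotency markers was 61110 to 74570 at day 0 and still 48085 to 52974 at day 2. ERG was the 1 of 8 genes called, against 7.88% of all genes tested, and it fell by 2.72 on the log2 scale (standard error 0.37, adjusted p = 1.4e-06, limma). ETV2 rose by 1.72 (standard error 0.43, adjusted p = 0.00224, limma) and so moved opposite to ERG. ELF1 (1.09) and ELK3 (0.95) also rose, ETS2 (-0.83) and ETV6 (-0.45) fell, the last not without any 1 of 3 samples (highest adjusted p 0.182, limma), and FLI1 (0.56, standard error 0.37) and ETS1 (0.59, standard error 0.29) did not pass the test. Around these genes, all 8 of 8 tested mesoderm genes were called higher, among them T (11.25), which specifies mesoderm, and HAND1 (9.76), with a list median of 9.18 beside -0.01 for all genes. Of the 6 blood partner factors, 4 were called higher, led by GATA2 (5.69) and LMO2 (3.38). Of 22 endothelial genes only SOX17 (8.92) and ESAM (2.89) were called, and the list median was -0.34.

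From day 2 to day 4, FLI1 and ERG rose together. FLI1 rose by 7.36 on the log2 scale (standard error 0.37, adjusted p = 1.76e-14, limma), which is 165-fold, and ERG by 6.12 (standard error 0.37, adjusted p = 5.25e-13, limma), which is 69.5-fold. These were the 2 of 8 genes called, against 9.5% of all genes. ETV2 rose by 1.20 (standard error 0.43, adjusted p = 0.0285, limma), a change that missed the threshold without replicate 1 or 3 of day 2 or without replicate 2 of day 4 (highest adjusted p 0.178, limma). ELK3 (1.46), ETS1 (1.29), ELF1 (0.84) and ETS2 (0.63) rose as well, and ETV6 (0.39, adjusted p = 0.0645, limma) did not pass the test. Of 22 endothelial genes, 13 were called higher in this step, among them PECAM1 (8.88) and CDH5 (7.06), which encode adhesion proteins of endothelial junctions, and CD34 (7.18). TAL1, a blood and endothelial partner factor, rose by 6.99 and 5 of the 6 partners were called higher. The mesoderm genes turned over, with 5 called lower, among them T (-6.89) and MIXL1 (-6.09), and HAND1 called higher (3.01). Mesenchymal markers rose in the same step, with 6 of 8 called higher and a sum of 10315 to 12789 at day 2 and of 135561 to 196102 at day 4, and their part in the ETS values was not tested.

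Taking the genes within each sample, the mean log2 value of ETV2 minus that of FLI1 changed by -6.16 ± 0.81 (combined SD, n = 3 against 3) from day 2 to day 4. The mean of ETV2 minus ERG changed by -4.92 ± 0.58. The combined SD is the root of the summed squares of the SDs of both days. For FLI1 and for ERG the 3 samples of the 2 days did not overlap. The two-sided exact permutation test gave p = 0.1 for each, the smallest it can give with 3 against 3. By these amounts the rise of FLI1 and of ERG exceeded that of ETV2 on the log2 scale.

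At day 6 the cells were first split by CD43. Against the unsorted day 4 cells, selection by the sort and change over time therefore cannot be told apart. In CD43+ cells against day 4, ELF1 was the 1 of 8 genes called, against 14.5% of all genes, and rose by 2.47 (standard error 0.21, adjusted p = 2.54e-10, limma). ETV6 rose by 1.52 and ETS2 fell by 0.61 (adjusted p = 0.0161, limma, and up to 0.0556 without 1 sample), while ETV2 (0.92, standard error 0.43, adjusted p = 0.0722, limma), FLI1 (0.61), ERG (0.15), ETS1 (0.31) and ELK3 (-0.45) did not pass the test. SPI1, an ETS family gene outside the 8 that directs myeloid development, rose by 7.40 from a mean of 7.33 to 1377. RUNX1, needed for blood to emerge from endothelium, was called higher as well (4.08), as were 8 of 22 endothelial genes, led by CLDN5 (5.89).

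In day 6 CD43- cells against day 4, 0 of 8 genes were called in the limma fit, against 7.71% of all genes. At an adjusted p below 0.05 alone, for which no share of all genes was computed, 5 of the 8 passed. As many had an unadjusted p below 0.05. ERG (1.17, adjusted p = 0.0113), ETS1 (1.03), ELF1 (0.70), ELK3 (0.56) and ETV6 (0.53) rose in limma, but none of these passed without replicate 1 of the day 6 CD43- cells (adjusted p 0.0596 to 0.206 without it). ETV2 (0.11), FLI1 (0.12) and ETS2 (0.11) lay within their standard errors of 0.43, 0.37 and 0.21. Endothelial genes were called higher for 14 of 22, led by CLDN5 (7.52), CLEC14A (5.81) and ROBO4 (5.49).

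The 3 day 6 CD43- samples differed widely. Replicate 1 had the highest and replicate 3 the lowest value of FLI1, ERG, ETS1, ELF1, ELK3 and ETV6, for ETS1 10423, 6354 and 3644. CDH5 had the same order, at 25876, 10844 and 5254, as did the sum of all 10 endothelial markers, at 123622, 90822 and 39239, none of which was at 0 in all 3 samples. The sum of 8 mesenchymal markers had the opposite order, at 197171, 203454 and 245230. COL3A1, among these 8, had a mean of 90700 there, the table's maximum, so that part of the sum was capped. The part of these cell type signals in the ETS values was not tested. Over the 12 CD43- samples, the highest ERG and FLI1 values were found in the samples with the highest CDH5, as the plot of ERG and FLI1 beside CDH5 shows.

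**Figure D2:**
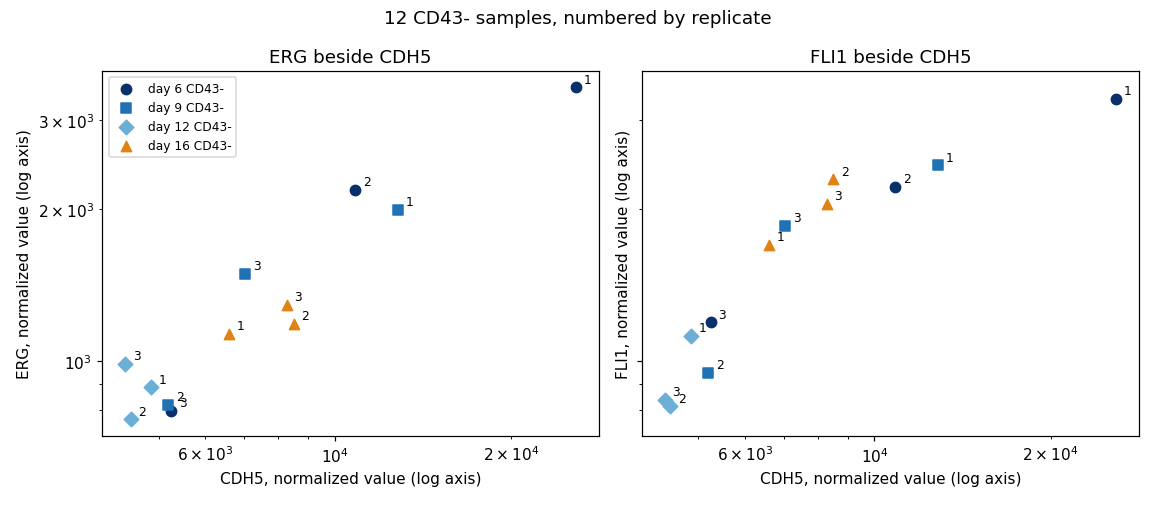
ERG (left) and FLI1 (right) against CDH5, an endothelial adhesion gene, in the 12 CD43- samples, both axes as normalized values on log scales, with the replicate number beside each point. Replicate 1 of day 6 is highest on all axes (CDH5 25876, ERG 3481, FLI1 3302), and the day 12 samples lie at the low end.

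From day 4 to day 6 the within-sample differences did not reach the smallest p. ETV2 minus FLI1 changed by 0.32 into CD43+ cells (exact permutation p = 0.5) and by -0.01 into CD43- cells (exact permutation p = 1), and ETV2 minus ERG by 0.78 (exact permutation p = 0.2) and -1.06 (exact permutation p = 0.3).

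From day 6 to day 16 ETV2 fell in both branches, whereas FLI1 passed the test in neither. These comparisons of day 16 with day 6 were added after the values had shown the highest ETV2 at day 6, which favours a fall of ETV2. In CD43+ cells, ETV2 fell by 3.31 on the log2 scale (standard error 0.43, adjusted p = 1.45e-07, limma) and ETS1 fell by 2.23, and these were the 2 of 8 genes called, against 21.3% of all genes. ETS2 (1.76) and ELF1 (0.63, adjusted p 0.0518 without replicate 2 of day 16) rose in limma, ERG fell by 1.0 (adjusted p = 0.0199, limma), and FLI1 (0.48, standard error 0.37), ETV6 (0.34) and ELK3 (-0.17) did not pass the test. The fall of ERG missed the threshold under another scaling and without any 1 of 3 samples (highest adjusted p 0.0643, limma).

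In CD43- cells, ETV2 fell by 3.80 (standard error 0.43, adjusted p = 3.46e-08, limma) and was the 1 of 8 genes called, against 13.2% of all genes. FLI1 (-0.04, standard error 0.37) and ERG (-0.60, standard error 0.37) did not pass the test, ETS1 fell by 0.96 (adjusted p 0.0906, limma, without replicate 1 of day 6) and ETS2 rose by 0.90. Within samples, ETV2 minus FLI1 changed by -3.79 ± 0.33 in CD43+ cells and by -3.76 ± 1.06 in CD43- cells, and ETV2 minus ERG by -2.31 ± 0.52 and -3.20 ± 1.36 (combined SD, n = 3 against 3). The exact permutation p was 0.1 in all 4 cases, the smallest possible.

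Set against day 4 instead, ETV2 fell by 2.38 in CD43+ cells (standard error 0.43, adjusted p = 1.82e-05, limma) and fell by 3.69 in CD43- cells (standard error 0.43, adjusted p = 2.78e-08, limma). It was called together with ELF1 (3.11) in CD43+ cells, 2 of 8 genes against 26.7% of all genes, and alone in CD43- cells, 1 of 8 genes against 16.8%. FLI1 was 1.09 higher at day 16 than at day 4 in CD43+ cells (standard error 0.37, adjusted p = 0.011, limma, and 0.0506 without replicate 2 of the day 16 CD43+ cells) and 0.08 higher in CD43- cells (standard error 0.37, adjusted p = 0.874, limma). ERG was 0.57 higher in CD43- cells (adjusted p = 0.188, limma) and lower in CD43+ cells (-0.85, adjusted p = 0.0421, limma), and the lower value did not hold in 7 of the 15 alternatives. The comparisons with day 4 share the 3 day 4 samples, which were unsorted, so that here too sort and time cannot be told apart.

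**Figure D3:**
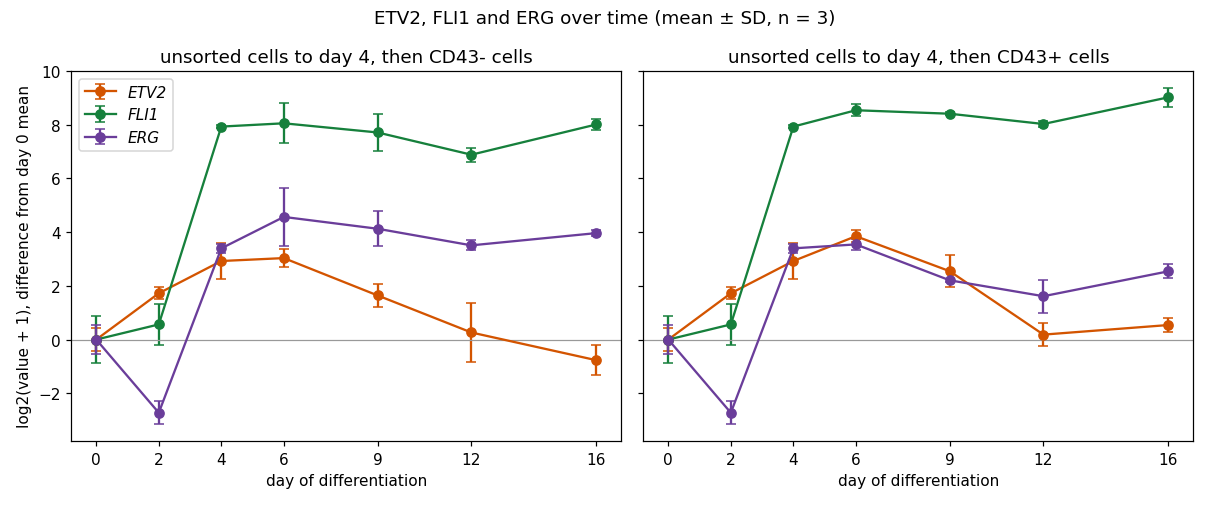
ETV2, FLI1 and ERG as the difference of log2(value + 1) from the day 0 mean (vertical axis) against the day of differentiation, with unsorted cells to day 4 and then CD43- cells (left) or CD43+ cells (right). Points are means and bars are SD of 3 samples, and both panels share the points to day 4. The ETV2 means lie within 1 log2 unit of day 0 from day 12 on, whereas those of FLI1 and ERG stay more than 1 unit above it.

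Step by step, ETV2 fell in CD43+ cells up to day 12 and not after it. In CD43+ cells it fell by 1.30 from day 6 to day 9 (adjusted p = 0.0214, limma, and up to 0.137 without replicate 3 of day 6 or replicate 1 of day 9) and fell by 2.36 from day 9 to day 12 (standard error 0.43, adjusted p = 3.79e-05, limma), and the change from day 12 to day 16 was 0.36 (adjusted p = 0.53, limma). Of the 8 genes, 0 were called from day 6 to day 9 in the limma fit against 7.53% of all genes, 1 from day 9 to day 12, ETV2, against 15%, and 0 from day 12 to day 16 against 9.05%. At an unadjusted p below 0.05, for which the share of all genes was not computed, 7, 4 and 3 of the 8 passed in these steps. With a pseudocount of 10, the day 9 to day 12 change of ETV2 was -1.999 and just short of a call.

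In CD43- cells ETV2 fell over the same steps (-1.39, -1.38 and -1.03, adjusted p = 0.0476, 0.0128 and 0.0499, limma). The first and the last lost the threshold in 10 and 8 of 15 alternatives, so that single steps were not resolved. Of the 8 genes, 0 were called in each step in the limma fit, against 1.75%, 7.33% and 10.4% of all genes. At an adjusted p below 0.05, without the fold limit, 2, 2 and 3 of the 8 genes passed in the 3 steps. At an unadjusted p below 0.05 these counts were 2, 4 and 3. The shares of all genes under these rules were not computed.

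FLI1 and ERG also changed late in CD43+ cells. ERG fell by 1.34 from day 6 to day 9 (adjusted p = 0.00658, limma), and from day 12 to day 16 FLI1 was 0.99 higher (adjusted p = 0.0323, limma) and ERG 0.93 higher (adjusted p = 0.044, limma). The last 2 missed the threshold in 5 and 8 of 15 alternatives. Replicate 3 of the day 16 CD43+ cells had the lowest FLI1 (3062) and also the lowest sum of 7 megakaryocyte markers, 25693 beside 62524 and 96171. Between days 6 and 9 the CD43+ cells differed in this sum, at 10007 to 14957 and 37278 to 42163. Their FLI1 was at 2487 to 3377 and 2554 to 2734. FLI1 is a known regulator of megakaryocyte genes, and the part of these cells in its level was not tested.

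In CD43- cells, FLI1 rose by 1.13 from day 12 to day 16 (standard error 0.37, adjusted p = 0.0149, limma), with no overlap between the 3 samples of each day, and had an adjusted p of 0.0543 (limma) without replicate 2 of day 16. The megakaryocyte marker sum, with none of its 7 markers at 0 in all 3 samples, was 194 to 1134 at day 12 and 4780, 14625 and 7439 at day 16, and replicate 2 of day 16 was highest in both this sum and FLI1. The neutrophil marker sum was 84, 528 and 7375 at day 12 and 7159 to 26160 at day 16. Within day 12 the order differed, as replicate 1 had the highest FLI1 (1122) and the lowest of both sums. The sum of 10 endothelial markers was 36843 to 53291 at day 12 and 61351 to 74756 at day 16. PTPRC, the gene of CD45, stood at 197 and 371 in replicates 2 and 3 of the day 12 CD43- cells and at 4 in replicate 1. The part of these blood cell and endothelial signals in the FLI1 values was not tested.

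The direct comparison of CD43+ with CD43- cells divided the 8 genes. ELF1 and ETV6 were higher in CD43+ cells on every day, and ERG, ETS1 and ELK3 were lower on days 9, 12 and 16. On day 6 ELK3 was lower too, whereas the lower ERG and ETS1 of that day did not hold in a fit of the day 6 cells alone, with or without the replicate numbers as pairs. In limma, 0 of 8 genes were called on day 6 against 12.5% of all genes, 1 on day 9 (ELF1) against 21.5%, 2 on day 12 (ELF1 and ETS1) against 26.2% and 1 on day 16 (ELF1) against 25.8%. On day 6, 6 of the 8 had an unadjusted p below 0.05, for which the share of all genes was not computed. Large shares of all genes differed between these cells, and the shares of members called were not above them.

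ELF1 was called on days 9, 12 and 16. Its CD43+ samples were at 3758, 3426 and 3460 on day 6 and at 4246 to 6592 on days 9 to 16, while its CD43- samples were at 1572, 974 and 736 on day 6 and at 853 to 1828 later. No CD43+ sample overlapped with a CD43- sample of any day. The log2 fold changes were 1.77, 2.54, 2.20 and 2.47 on days 6, 9, 12 and 16 (standard error 0.21 each, highest adjusted p = 8.05e-08, limma). Without replicate 1 of the day 12 CD43- cells the day 12 value was 1.98, just under the 4-fold limit, and without replicate 1 of the day 6 CD43- cells the day 6 value was 2.06 and above it.

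ETV6, which adult blood stem cells need in the marrow, followed the same course at a smaller size. It was at 996 to 1228 in day 6 CD43+ cells and at 1205 to 2082 in later CD43+ cells, beside 422 to 706 in the CD43- cells of all days. The log2 fold changes were 0.98, 1.60, 1.63 and 1.59 (standard error 0.16 each, highest adjusted p = 1.37e-05, limma).

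ERG was lower in CD43+ cells on days 6, 9, 12 and 16 (log2 fold changes -1.02, -1.92, -1.89 and -1.42, standard error 0.37 each). The adjusted p was 0.0226, 5.41e-05, 5.68e-05 and 0.00135 (limma). The day 6 difference missed the threshold when only the 2 populations were fitted (adjusted p = 0.115, limma), with the replicate numbers as pairs in that fit (adjusted p = 0.091, limma), or without any 1 of 3 samples, and replicate 3 had the opposite order (1008 in CD43+ and 797 in CD43- cells). The difference on day 9 was called under median-of-ratios scaling, at -2.13.

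ETS1 in CD43+ cells was at 4109, 2951 and 4470 on day 6, at 1345, 1360 and 1665 on day 9, at 562, 640 and 518 on day 12 and at 896, 962 and 608 on day 16. CD43- cells were at 5244, 3156 and 5306 on day 9, at 3646, 3080 and 7318 on day 12 and at 2876, 3257 and 3510 on day 16. The groups did not overlap after day 6. The log2 fold changes were -0.72, -1.62, -2.93 and -1.99 (standard error 0.29 each), and the adjusted p was 0.0414, 2.33e-05, 1.15e-09 and 1e-06 (limma). The day 6 value missed the threshold in 6 of 15 alternatives, among them the fit of the day 6 cells alone with the replicate numbers as pairs (adjusted p = 0.11, limma), and replicate 3 had the opposite order (4470 in CD43+ and 3644 in CD43- cells). Between day 6 and day 16 the difference changed by -1.27 (standard error 0.41, adjusted p = 0.0122, limma).

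ETS2 differed between the sorted cells until day 12 and did not pass the test on day 16. It was lower in CD43+ cells on days 6, 9 and 12 (-0.72, -1.26 and -1.65, highest adjusted p = 0.00565, limma) and was 0.14 (standard error 0.21, adjusted p = 0.569, limma) on day 16. Its day 16 values were 2058, 2068 and 2314 in CD43+ cells and 1746, 1931 and 2185 in CD43- cells, which overlapped. In CD43+ cells it rose over the steps from day 9, by 0.59 and 0.71. In CD43- cells it rose by 1.0 to day 9 and by 0.98 to day 12 (adjusted p 0.355 and 0.129, limma, when only the populations compared were fitted), where replicate 1 was at 2554 and the others at 5251 and 5194, and then fell by 1.08.

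ELK3, a repressor, was lower in CD43+ cells by log2 fold changes of -1.01, -1.43, -0.47 and -0.88 (standard error 0.20 each, adjusted p = 0.000132, 5.35e-07, 0.0399 and 0.00035, limma). Its day 12 samples overlapped, at 1916, 1252 and 1468 in CD43+ cells and at 2461, 1448 and 2612 in CD43- cells, and this difference missed the threshold in 6 of 15 alternatives. On the other days the groups did not overlap.

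FLI1 was higher in CD43+ cells on days 12 and 16 and ETV2 on day 16. Neither passed the test on the earlier days in the fit of all samples. FLI1 had log2 fold changes of 0.49, 0.70, 1.14 and 1.01 (standard error 0.37 each), with an adjusted p of 0.288, 0.0999, 0.00815 and 0.0182 (limma), the last up to 0.0743 without 1 sample. ETV2 had 0.81, 0.90, -0.08 and 1.31 (standard error 0.43 each), with an adjusted p of 0.116, 0.0652, 0.883 and 0.00854 (limma), and its day 16 difference rests on values of 37 and below. When only the 2 day 6 populations were fitted, the adjusted p of ETV2 was 0.0143 (limma), and 0.0114 (limma) with the replicate numbers as pairs. Whether ETV2 was higher in day 6 CD43+ cells thus depended on the fit, although its samples of that day did not overlap. On days 12 and 16, FLI1 was thus higher and ERG lower in the same CD43+ samples.

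**Figure D4:**
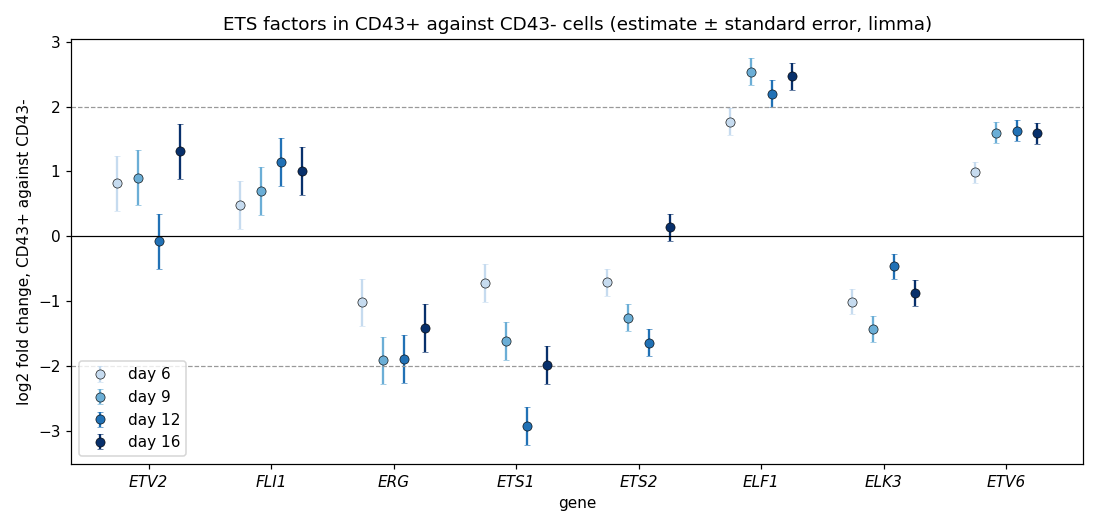
Log2 fold change of CD43+ against CD43- cells on days 6, 9, 12 and 16 (light to dark points) for each gene, with bars of 1 standard error from limma and dashed lines at 4-fold. ELF1 and ETV6 lie above 0 on all days, ERG, ETS1 and ELK3 estimates below, and ETS2 moves from -1.65 on day 12 to 0.14 on day 16.

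From day 6 to day 16, a change in the difference between CD43+ and CD43- cells was called for 0 of 8 genes in limma, against 19.2% of all genes. At an adjusted p below 0.05, without the fold limit, it was found for 3 of the 8, ETS1 (-1.27), ETS2 (0.85) and ETV6 (0.61). At an unadjusted p below 0.05 it was found for 4. The shares of all genes under these rules were not computed.

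Endothelial genes as a list were lower in CD43+ cells. Of 22 endothelial genes, 2, 16, 17 and 18 were called lower in CD43+ cells on days 6, 9, 12 and 16. Of all genes, 12.5%, 21.5%, 26.2% and 25.8% were called in either direction. The list medians were -1.19, -3.20, -3.92 and -4.26 beside all-gene medians of 0.14, 0.24, 0.22 and 0.14. SOX17 (-2.77) and ROBO4 (-2.26) were the 2 on day 6, and RHOJ (-6.32), CLEC14A (-6.32) and ROBO4 (-6.30) led on day 16. From day 6 to day 16, 0 of the 22 were called in CD43- cells in limma, against 13.2% of all genes (list median -0.30, 8 of 22 at an unadjusted p below 0.05). In CD43+ cells, where 21.3% of all genes were called, 16 were called lower, led by SOX7 (-5.70). ENG, a co-receptor of endothelial and blood cells, was called higher there (2.4). The sum of 8 mesenchymal markers in the same CD43+ cells was 58788 to 155112 on day 6 and 7408 to 15871 on day 16, with 2 of the 8 called lower and 1 higher, and its part in the falls was not tested. The sum of the 10 endothelial markers was 61351 to 74756 in day 16 CD43- cells and 12458 to 17148 in day 16 CD43+ cells. In CD43+ cells PECAM1 stayed at 5483 to 6468 on day 16, while CDH5 was at 233, 243 and 263.

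Among the other ETS genes, 16 of 20 were in the table and 14 were tested. SPI1 was higher in CD43+ cells on all 4 days, by 7.35, 8.15, 6.47 and 5.93 on the log2 scale, the last 2 against CD43- means of 230.7 and 144 beside 7.67 and 7.33 on days 6 and 9. ELF3, an epithelial ETS factor, was lower (-3.30, -6.44, -5.19 and -2.82). In all, 5, 5, 4 and 4 of the 14 were called, against 12.5%, 21.5%, 26.2% and 25.8% of all genes. The list medians were -0.02, -0.0027, -0.25 and -0.21. Of the 6 blood partner factors, beside the same shares, 5, 5, 4 and 4 were called higher in CD43+ cells on the 4 days, TAL1, RUNX1 and LYL1 on each of them. HHEX did not pass the test on day 6 (0.45, adjusted p = 0.329, limma) or on day 9 (0.021, adjusted p = 0.973, limma).

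Across the means of the 11 replicated populations, FLI1 and ERG had a Pearson's r of 0.825 on log2(value + 1), ELF1 and ETV6 0.933, ETV2 and FLI1 0.241 and ETV2 and ERG 0.183. The r of FLI1 and ERG includes days 0 and 2, when both were low. Their mean log2 values were then 2.96 and 3.52 for FLI1 and 6.27 and 3.54 for ERG. From day 4 on the lowest means were 9.84 and 7.88, and r was not computed for these populations alone. Among 15106 genes with a mean of at least 100 in 1 or more populations, the 5 most like FLI1 were ICAM2 (0.983), ST3GAL5 (0.971), PECAM1 (0.967), NEK9 (0.962) and SENCR (0.96), the last of which overlaps FLI1 on the opposite strand. Those most like ERG were CALCRL (0.975), ADGRA2 (0.968), PBXIP1 (0.945), ABO (0.945) and CD34 (0.944), and those most like ETV2 were DDAH2 (0.949), DHX38 (0.921), ABCC5 (0.916), ZBTB40 (0.912) and PRTFDC1 (0.91). These are descriptions over 11 points, days 0 and 2 among them, that share cell line, protocol and normalization.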

How the data were processed

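RNA-seq of 34 samples was analysed. The authors ran Bowtie2 and RSEM against Ensembl genes (the labels also name STAR 2.7, bcl2fastq and hg38). The authors used DESeq2 with limits of q 0.05 and 4-fold. The deposited value is a normalized score, a tag count that the authors adjusted for GC content with EDASeq, within and between samples, and then rounded. A GC percent per gene, of unstated source, was deposited beside it and entered no test. Raw counts were not used here, so depth is unknown and errors are the spread of replicates.

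Values on the scale log2(value + 1) were fitted by limma 3.58.1 under R 4.3.3, with lmFit and a trended eBayes, all 33 replicated samples together and no replicate block. A gene entered if 3 or more samples reached 10, which kept 19788 genes and left out 467. Calls needed a Benjamini-Hochberg adjusted p below 0.05 and a fold change above 4. Changes of ETV2 minus FLI1 or ERG within samples were tested by two-sided exact permutation. The procedure was tested on simulated data. Values were summarised with pandas 2.3.3 and numpy 2.4.6.

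The members and gene lists were chosen with earlier results of these data known. The lists were endothelial genes (22), other ETS genes (20), blood partner factors (6), mesoderm genes (9) and cell type markers, and from each list the 3 called genes with the largest change, and those against the list's majority, could be named. The day 16 values of PECAM1 and CDH5 and the comparisons of day 16 with day 6 were chosen after values were seen. The alternatives used a pseudocount of 0.1 or 10, no low-value filter, median-of-ratios scaling, a replicate block, a fit of the compared populations alone, a 2-fold limit and leaving out each replicate. Deviations from the population means of CD43+ and CD43- samples with the same number correlated across genes at 0.198, 0.109 and 0.199 on day 6, over 0.1 in every pair, and at 0.0165 to 0.0782 on day 9, 0.0389 to 0.108 on day 12 and -0.0152 to 0.0418 on day 16, so the numbers were read as pairs for day 6 alone. The sample titles do not say that like numbers share a culture, and samples of unlike numbers were not correlated, so this reading is uncertain.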

Additional observations from a re-analysis of the deposited data

Results flagged for a closer look

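The CD43 difference changed between day 6 and day 16 for 3 of the 8 genes in limma's test of the difference itself, all by less than 4-fold. With the 4-fold limit, 0 of the 8 were called, against 19.2% of all genes. The share of all genes at the adjusted p alone was not computed, so the count of 3 has no background. ETS1 changed by -1.27 on the log2 scale (adjusted p = 0.0122, limma), from -0.72 on day 6 to -1.99 on day 16, and had an adjusted p of 0.0573 without replicate 3 of the day 6 CD43- cells. ETS2 changed by 0.85 (adjusted p = 0.0183, limma), from -0.72 to 0.14, with an adjusted p below 0.05 in every alternative run. ETV6 changed by 0.61 (adjusted p = 0.0302, limma), from 0.98 to 1.59, and missed the threshold in 8 of 21 alternatives, all of which left out 1 sample. The sum of 10 endothelial markers ranged from 39239 to 123622 over the day 6 CD43- samples, and the part of that spread in these changes was not tested. The day 16 cells were also sorted by CD45, which cannot be told apart from time.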

How the results depend on the processing

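Of 15 calls of the 8 genes over all comparisons, 13 held under every alternative. In CD43+ cells ETV2 from day 9 to day 12 was short of 4-fold with a pseudocount of 10, which left 0 calls there, and ELF1 on day 12 was so without replicate 1 of the CD43- cells. Of 89 differences with an adjusted p below 0.05, 58 stayed below it in every alternative. For a fold change above 2 the share of all genes was not computed, so the counts at this limit have no background beside them. This limit gave 3 calls for day 2 against day 0 and 5 for day 4 against day 2. It gave 2 each for day 6 CD43+ and CD43- cells against day 4. It gave 3, 6, 6 and 6 between CD43+ and CD43- cells on days 6, 9, 12 and 16, 3 and 2 for the first and second later steps in CD43+ cells, 2, 1 and 3 for the 3 steps in CD43- cells, 6 and 2 for day 16 against day 4 in CD43+ and CD43- cells, 4 for day 16 against day 6 in CD43+ cells and 1 for the change of the CD43 difference. Median-of-ratios scaling (factors 0.8948 to 1.112) gave 2 calls on day 9, with ERG at -2.13, and 2 on day 16, with ETS1 at -2.01. Leaving out 1 replicate gave 0 to 1 calls between CD43+ and CD43- cells on day 6, 1 to 2 on day 9, 1 to 3 on day 12 (3 without replicate 3 of the CD43+ cells, with ERG at -2.15) and 1 to 2 on day 16. ETV2 minus ERG from day 2 to day 4 was -4.19 with a pseudocount of 10.

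The replicate block changed no 4-fold call of the 8 genes. On day 6, where the numbers were read as pairs, the adjusted p of the CD43 difference of ERG was 0.0288 with the replicate block in the fit of all samples and 0.091 in the fit of the day 6 cells alone, and that of ETS1 was 0.0431 and 0.11 (limma). FLI1 was below the filter on low values when only days 0 and 2 were fitted, so no value was given there.

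Small differences that were not called changed sign. Under median-of-ratios scaling these were ETV6 from day 9 to day 12 in CD43+ cells (0.065), ETS1 in CD43- cells over the same days (0.022) and ELK3 in CD43+ cells between days 6 and 16 (0.0090). Without 1 replicate, the ranges from day 6 to day 9 in CD43- cells were -0.73 to 0.047 (FLI1), -1.04 to 0.026 (ERG), -0.36 to 0.19 (ELF1) and -0.064 to 0.27 (ETV6). From day 9 to day 12 in CD43- cells they were -0.41 to 0.22 (ETS1), -0.33 to 0.0050 (ETV6) and -0.40 to 0.021 (ELK3). Between days 6 and 16 the CD43- ranges were -0.44 to 0.30 (FLI1) and -0.32 to 0.23 (ELF1), and from day 4 to day 16 -0.018 to 0.20 (FLI1). For day 6 CD43- cells against day 4 they were -0.14 to 0.48 (ETV2), -0.22 to 0.52 (FLI1) and -0.55 to 0.32 (ETV2 minus FLI1). In CD43+ cells they were -0.27 to 0.021 (ETV6, day 9 to day 12), -0.22 to 0.088 (ELK3, day 12 to day 16) and -0.24 to 0.053 (ELF1, day 12 to day 16). ETV2 on day 12 between CD43+ and CD43- cells ranged from -0.56 to 0.53, and the day 16 minus day 6 CD43 difference from -0.87 to 0.20 (ERG) and -0.10 to 0.38 (ELK3). The causes were not tested. Read depth is unknown, so no counting error could be given for the low ETV2 values.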
